A study of Homo sapiens and Mus musculus with 66 samples.

Results

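The cytosolic ribosomal protein genes comprised 84 of the 19229 protein-coding genes annotated on the hg19 autosomes, and were chosen by symbol alone. Every gene whose symbol begins with RPL or RPS and a digit was taken, together with RPLP0, RPLP1, RPLP2 and RPSA, and the RPS6K kinases were left out. This rule gave 73 genes for standard proteins of the cytosolic ribosome, of which 30 belong to the small and 43 to the large subunit. It also gave 8 paralogs or related genes (RPL3L, RPL7L1, RPL10L, RPL22L1, RPL26L1, RPL36AL, RPL39L and RPS27L), 2 readthrough genes (RPL17-C18orf32 and RPS10-NUDT3) and RPS19BP1, which codes for a protein that binds RPS19 and is not itself part of the ribosome.

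Each human ribosome carries 1 copy of most of these proteins, folded around the ribosomal RNA, and the genes are transcribed at high rates in nearly all growing cells. Most of their mRNAs begin with a C followed by an unbroken run of pyrimidines, the terminal oligopyrimidine (TOP) start, through which their translation follows nutrient signalling. Lamina-associated domains (LADs), the stretches of chromosome that touch the nuclear lamina, are known to be poor in genes and weakly transcribed, and in dividing cells they have to be formed again after each mitosis.

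Chromatin at or near the nuclear lamina was mapped by cTSA-seq with an antibody to lamin-B1. An antibody-bound peroxidase deposits biotin on nearby proteins and DNA, the labelled chromatin is pulled down, and its DNA is sequenced beside input. The label spreads by diffusion, so a called region lies at or near the lamina and need not touch it. K562, a leukemia cell line, was measured as a bulk population, and HCT116, a colorectal cancer line, in bulk and with 50000, 200000 and 1000000 cells. HCT116 cells were also arrested in mitosis with nocodazole (16 h in the labels, longer in the study's methods), released for 90 min or 180 min and sorted for G1 (90m G1 and 180m G1), and G1, S and G2 cells were sorted from cycling cultures without arrest. Labels give 2 pull-down libraries for each of these conditions and 1 for the 1000000 cells, but the deposited regions form 1 merged list per condition. There was therefore no spread between replicates, and no difference described here could be tested. All 10 condition lists hold regions in windows of 100 kb, and a gene counted as called from 80% of its length inside them upwards. A list of K562 regions depleted of lamina signal in both cTSA-seq and published TSA-seq (nonLAD) was read in the same way. The region lists hold no RNA. Libraries of newly made RNA (SLAM-seq) from 90m G1, 180m G1 and G1 HCT116 cells belong to the series and were not read here. In them the study saw no transcription of genes that were outside LADs in early G1 and back in LAD-like regions later. From this it proposes that brief lamina association in early G1 hardly alters transcription. Genes called at 90m G1 and not later are the reverse case. Of the 12 marker loci of the erythroid and colon lineages examined, the colon genes CDX1 and VIL1 lay inside 90m G1 regions, where 16.7% of all protein-coding genes were called. None lay inside a K562 lamina region, where 10.6% of all protein-coding genes were called.

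The start sites of 7 members are shown because they mark genes with different positions in the lists described below. They were read from hg19 at the start of the canonical transcript, with 10 bases before the start and 20 from the start on. Capitals mark the first transcribed base and the pyrimidines that follow it without a break, where that base is a C. RPL7A, RPLP2 and RPLP0 lay inside regions at 90m G1 and in no other condition list, and RPS7 at 90m G1 and in bulk HCT116 cells. RPL14 lay inside a region at 180m G1 and in bulk HCT116 cells, RPS12 in K562 cells only, and RPL10L, an intronless copy of RPL10, also in K562 cells only.
RPL7A: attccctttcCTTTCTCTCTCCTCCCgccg
RPLP2: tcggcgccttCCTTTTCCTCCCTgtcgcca
RPLP0: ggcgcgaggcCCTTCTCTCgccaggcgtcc
RPS7: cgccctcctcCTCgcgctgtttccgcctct
RPL14: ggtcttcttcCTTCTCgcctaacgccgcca
RPS12: cggatgaggcCTCTTTCCCTgccgccgccg
RPL10L: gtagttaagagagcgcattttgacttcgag
These windows lie at chr9:136215063-136215092 on the plus strand for RPL7A, chr11:809957-809986 on the plus strand for RPLP2 and chr12:120638895-120638924 on the minus strand for RPLP0. They lie at chr2:3622840-3622869 (plus) for RPS7, chr3:40498820-40498849 (plus) for RPL14, chr6:133135698-133135727 (plus) for RPS12 and chr14:47120965-47120994 (minus) for RPL10L. The run is 16 bases long in RPL7A and 13 in RPLP2, against 3 in RPS7, while RPL10L does not start with a C.

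Most ribosomal protein genes lay outside lamina regions in every condition, as most protein-coding genes did. Of the 840 values, 84 genes in 10 lists, 818 were 0% and 21 were 100%, and 1 value lay in between. A base inside any list was found for 18 genes, and 66 genes (78.6%) had none, against 68.6% of all protein-coding genes. The lists differed mainly at 90 min after release: 14 genes were called at 90m G1, 1 at 180m G1, and none in G1, S or G2. All protein-coding genes were also called most often at 90m G1, 16.7% against 4.22% to 4.99% in the other sorted stages.

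**Figure D1:**
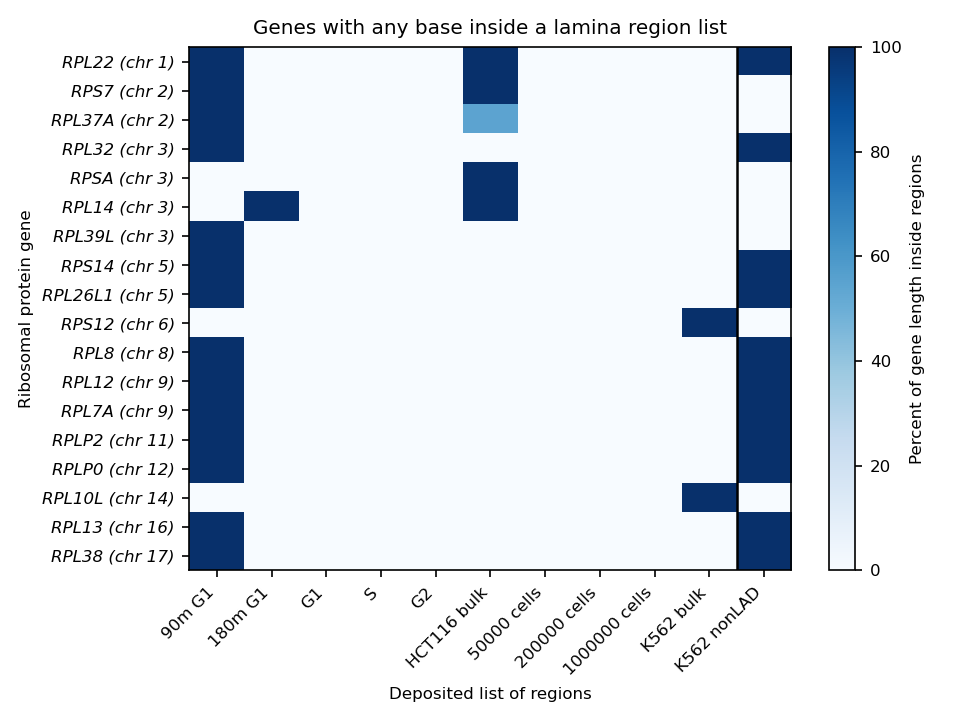
Percent of the length of each gene (colour, 0 to 100%) inside the regions of each list (columns), for the 18 ribosomal protein genes (rows, in chromosome order) with any base inside a condition list; the K562 nonLAD list stands to the right of the line. The filled cells of the first column are the 14 genes called at 90m G1, and the G1, S and G2 columns hold no filled cell.

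The 14 genes called at 90m G1 were 16.7% of the members, and 16.7% of all protein-coding genes, 3210 of 19229, were called in that list. The members were thus called no more often than genes in general. Of the 30 standard genes of the small subunit 2 were called, and of the 43 of the large subunit 10, and the remaining 2 called were paralogs of large subunit genes. RPS7 is a protein of the small subunit that also takes part in its assembly, and RPS14, which lines the platform of the small subunit near the mRNA, lies in the part of 5q lost in a form of myelodysplastic syndrome. Among the genes of the large subunit, RPLP0 and RPLP2 build the stalk, which recruits elongation factors, and RPL8 lies close to the peptidyl transferase centre. RPL7A, RPL12, RPL13, RPL22, RPL32, RPL37A and RPL38 are further standard proteins of this subunit. RPL26L1 and RPL39L are paralogs of RPL26 and RPL39, and the second is best known from the testis. Each of the 14 genes was inside over 100% of its length at 90m G1.

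These genes lay on 10 chromosomes in 13 regions, all in separate windows of 100 kb. RPS14 and RPL26L1 shared the longest of the regions, chr5:149000001-174500000, of 25.5 Mb. RPS7 lay in a region of 23.2 Mb at chr2:800001-24000000 and RPL32 in one of 16.6 Mb at the first end of chromosome 3. RPLP2 lay in a region of 4.7 Mb at the first end of chromosome 11, which held 111 protein-coding genes, or 23.6 per Mb. RPL38 lay in the shortest, chr17:71400001-72900000, of 1.5 Mb. The region around a called member had a median length of 7.15 Mb over the 14 members, against 6.32 Mb over the 3210 protein-coding genes called at 90m G1. RPLP0 and RPL37A lay closest to a border, 0.061 Mb and 0.0635 Mb inside it, which is less than 1 window.

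Of the 14 genes, none was called at 180m G1 or in the lists of cycling G1, S and G2 cells. Of the 3210 protein-coding genes called at 90m G1, 513 (16%) were called in at least 1 of these 4 lists. The distance from the 14 genes to the nearest G1 region ranged from 0.0715 Mb to 46.2 Mb with a median of 5.1 Mb, and the median was 1.36 Mb over the 3210 genes. RPS7 and RPL22 lay near a G1 region. RPS7 lay 0.0715 Mb from regions of the 180m G1, G1, S and G2 lists alike. RPL22, a large subunit protein that also binds small RNAs of Epstein-Barr virus, lay 0.345 Mb from a region at 180m G1, 0.145 Mb in G1, 0.245 Mb in S and 0.345 Mb in G2. RPLP0 lay 0.635, 0.535, 0.535 and 0.635 Mb away in the same order. RPL7A was far from any region, at 13 Mb to 13.2 Mb in all 4 lists. RPL39L differed between lists, with its nearest region 5.9 Mb away at 180m G1, 46.2 Mb in G1, 5 Mb in S and 46.2 Mb in G2.

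At 180m G1 RPL14, a protein of the large subunit, was the 1 member called (1.19%), where 4.65% of all protein-coding genes were called. Its region was chr3:39700001-42000000, and at 90m G1 RPL14 lay 1.3 Mb outside the nearest region. In the lists of cycling cells the members called were 0 of 84, against 4.52% of all genes in G1, 4.99% in S and 4.22% in G2 cells. With 50000, 200000 and 1000000 cells the count was again 0, against 5.51%, 4.72% and 4.41% of all genes.

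Bulk HCT116 cells gave 4 members called (4.76%), against 10.4% of all protein-coding genes. These were RPL22 and RPS7, which were also called at 90m G1, RPL14, and RPSA, the small subunit protein also known as the laminin receptor. The region with RPSA, chr3:38400001-39500000, ended 0.0323 Mb beyond the gene, so that RPSA lay in its last window. RPL37A gave the 1 intermediate value of the 10 condition lists. Of its annotated length of 80.4 kb, 54.6% lay inside chr2:217400001-218900000; its start lay before the region. In these lists no member had a value between 54.6% and 100%, so the bound of 80% separated RPL37A in bulk cells from values of 100% only. The bulk list covered 25.9% of the autosomes and the list from 1000000 cells 20.1%, and whether this gap bears on the 4 genes was not tested.

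**Figure D2:**
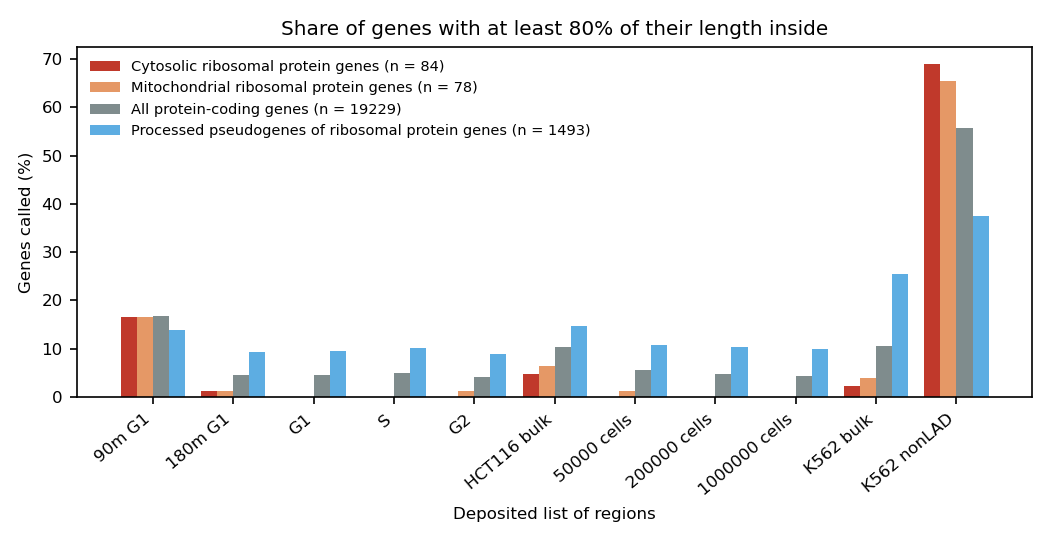
Percent of genes called in each list (bars, 80% or more of the gene inside), for the 84 cytosolic and 78 mitochondrial ribosomal protein genes, all 19229 protein-coding genes and 1493 processed pseudogenes of ribosomal protein genes. At 90m G1 the cytosolic genes and all protein-coding genes both stand at 16.7%, and in G1, S and G2 the cytosolic genes stand at 0.

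In K562 cells RPS12 and RPL10L were the 2 members called (2.38%), against 10.6% of all protein-coding genes. RPS12, a small subunit protein, lay at 100% inside chr6:132000001-134000000. RPL10L, which replaces RPL10 in male germ cells, lay at 100% inside chr14:45800001-50000000, a region of 4.2 Mb with 2 protein-coding genes in all. Both were also inside the list made from published TSA-seq (8.94% of all genes) and inside the list shared by both methods (6.46% of all genes). No member was called in the regions found by cTSA-seq alone (2.19% of all genes). Neither gene had a base inside any HCT116 list. The HCT116 and K562 lists covered different shares of the autosomes, 39.6% in K562 cells against 25.9% in bulk HCT116 cells and 16.8% at 90m G1.

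The K562 nonLAD list held 58 members (69%), against 55.8% of all protein-coding genes. Other genes of protein synthesis, described below, were also above that share. The list held 65.4% of mitochondrial ribosomal protein, 74% of translation factor, 65% of cytosolic aminoacyl-tRNA synthetase and 65.8% of ribosome assembly genes. Well-known members inside the nonLAD list over 100% of their length were RPL11, RPS14, RPS19, RPLP0 and RPL23A. RPL11 is a large subunit protein that binds MDM2 when ribosome assembly fails, and RPS19 is the gene most often mutated in Diamond-Blackfan anemia. RPL23A sits near the exit of the peptide tunnel. In neither K562 list were 24 members (28.6%), against 33.6% of all protein-coding genes, among them RPL5, which joins RPL11 in the 5S particle, RPS6, the target of the S6 kinases, and RPSA. Of these 24, RPS24 had 28.1% of its length inside the nonLAD list, and the others had 0%. The others were RPL5, RPS7, RPS27A, RPL31, RPL37A, RPL15, RPSA, RPL14, RPL24, RPL22L1, RPL39L, RPL34, RPS3A, RPL37, RPS23, RPS20, RPL7, RPS6, RPL27A, RPS13, RPS29, RPL36AL and RPLP1. Together with RPS12 and RPL10L, 25 members had no base in the nonLAD list, and so no order could be set among the lowest. Of the 14 genes called at 90m G1 in HCT116 cells, 11 (78.6%) were inside the K562 nonLAD list, against 56.1% of the 3210 genes called at 90m G1, and RPS7, RPL37A and RPL39L were not.

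Members called at 90m G1 lay nearer to chromosome ends than the others, with overlap. The 14 called genes lay 0.346 to 31.1 Mb from the nearest chromosome end with a median of 8.75 Mb, and the 70 others up to 101.6 Mb with a median of 33.7 Mb. Genes in general differed likewise, with a median of 8.88 Mb over the 3210 protein-coding genes called at 90m G1 and 30 Mb over all 19229. On the chromosomes with a short arm of repeats, distances were taken to the end of the long arm only. Within 5 Mb of an end, 5 of 13 members (38.5%) were called, against 48.6% of all genes there. The shares were 33.3% of 9 members and 35.6% of all genes from 5 to 10 Mb, and 25% of 16 members and 26% of all genes from 10 to 20 Mb. From 20 Mb on, 2 of 46 members (4.35%) and 5.39% of all genes were called. The 2 were RPL37A and RPS14, at 25.8 Mb and 31.1 Mb. With so few members per bin, these shares lie near those of all genes. RPL8, RPL13 and RPLP2 were the called members closest to an end, at 0.346, 0.724 and 0.81 Mb.

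**Figure D3:**
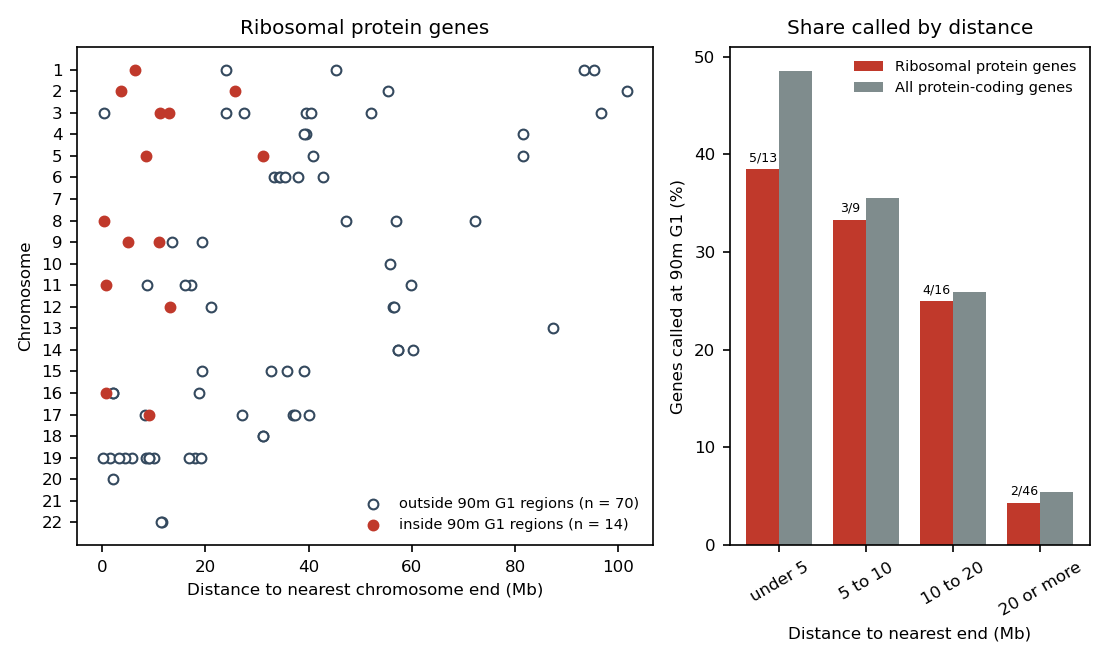
Left, distance of each of the 84 ribosomal protein genes to the nearest chromosome end (x axis, Mb) by chromosome (y axis), filled where the gene was called at 90m G1; right, percent of genes called at 90m G1 by distance, with the number of members called over the number in the bin. The filled points lie within 31.1 Mb of an end, and the 12 points on chromosome 19 are all open.

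Chromosome 19 held 12 members, 14.3% of the members against 7.7% of all protein-coding genes. RPS15, RPS19, RPL36 and RPL28 are examples, and all 12 lie within 19.2 Mb of an end. The 90m G1 list has no region on this chromosome, so 0 of its 1480 protein-coding genes were called. Off chromosome 19, 14 of 72 members (19.4%) and 18.1% of all genes were called. Among the members near an end that had no base inside a 90m G1 region, RPS15 lies on chromosome 19, 1.44 Mb from the end, RPL35A on chromosome 3, and RPL3L and RPS2 on chromosome 16. RPL35A lay 0.339 Mb from the end and 0.277 Mb from the nearest region. RPL3L, a paralog of RPL3 used in striated muscle, lay 1.99 Mb from the end and 1.89 Mb from a region, and RPS2 lay beside it at 2.01 Mb and 1.91 Mb.

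Distance to the nearest region gave a graded measure where the percentages were almost all 0. At 90m G1 the median over the 72 members with a region on their chromosome was 3.81 Mb, against 5.19 Mb over the 17520 protein-coding genes with one. Of all 84 members, 27 (32.1%) lay within 1 Mb of a region, against 28.2% of all 19229 genes. In every other condition list the median of the members was larger than that of genes in general. The medians of members and of all genes were 4.1 and 2.88 Mb at 180m G1 (over 70 members and 17299 genes with a region on their chromosome), 4.05 and 2.58 Mb in G1, 4.17 and 2.45 Mb in S, and 4.41 and 2.78 Mb in G2. They were 3.44 and 1.97 Mb in bulk HCT116 cells and 2.87 and 1.63 Mb in K562 cells. Within 1 Mb of a G1 region lay 12 members (14.3%) against 26.8% of all genes, and within 1 Mb of a K562 region 18 members (21.4%) against 40%. Among the well-known members, RPS6 lay 0.476 Mb from a G1 region and RPLP0 0.535 Mb. RPS14 lay 1.37 Mb away, RPSA 2.75 Mb, RPS19 4.16 Mb, RPL23A 4.35 Mb, RPL5 8.69 Mb and RPL11 8.82 Mb.

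**Figure D4:**
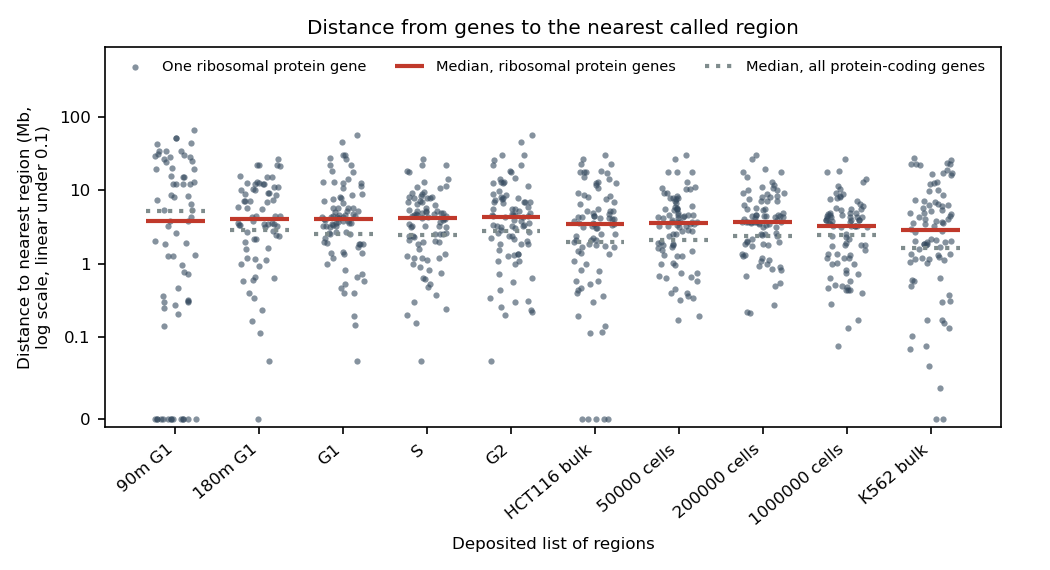
Distance from each ribosomal protein gene (points) to the nearest region of each condition list (y axis, Mb, log scale above 0.1 Mb and linear below), with the medians of members (solid line) and of all protein-coding genes (dotted line); genes on a chromosome without a region are left out. The solid line lies below the dotted one at 90m G1 (3.81 against 5.19 Mb) and above it in the other 9 lists.

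Most members had a TOP start, inside and outside the 90m G1 regions. A C at the first base followed by at least 4 pyrimidines (C or T, read on the transcribed strand) was found in 56 of 84 members (66.7%) and in 55 of the 73 standard genes (75.3%), against 4.53% of all protein-coding genes. The trait was not theirs alone, since 19 of 50 translation factor genes (38%) had it. It was found in 6.41% of mitochondrial ribosomal protein, 5% of cytosolic aminoacyl-tRNA synthetase and 7.89% of ribosome assembly genes. Of the members called at 90m G1, 10 of 14 (71.4%) had such a start, and of the members not called 46 of 70 (65.7%). Of the 7 sequences shown, RPL7A, RPLP2, RPLP0, RPL14 and RPS12 have it, and RPS7 and RPL10L do not. Of the 8 paralogs, 1 had it, RPL22L1. A start set in another place by the annotation changes the letters: RefSeq starts on GRCh38, known for 65 members, gave 41 with such a start (63.1%), against 4.63% of all genes matched. The members were also short, with a median length of 5.55 kb against 27.6 kb, and lay in windows of 100 kb with a median GC content of 48.7% against 44.5%. The median GC content of the window was 50.6% for the members called at 90m G1 and 46.3% for the others. Over the 3210 protein-coding genes called at 90m G1 it was 47.2%, also above the 44.5% of all protein-coding genes. Small nucleolar RNA genes, which guide modification of ribosomal RNA and are often carried in introns of ribosomal protein genes, lay inside 28 members, in 6 of the 14 called and 22 of the 70 others. RPL17 and the readthrough gene RPL17-C18orf32, which overlap, were both counted, with 3 each. The share over all protein-coding genes is not given for this feature, so nothing is read from these counts.

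Other genes of protein synthesis were called at 90m G1 in shares near the 16.7% of all protein-coding genes. Called were 13 of 78 mitochondrial ribosomal protein genes (16.7%), 10 of 50 translation factor genes (20%), 3 of 20 cytosolic aminoacyl-tRNA synthetase genes (15%) and 10 of 76 ribosome assembly genes (13.2%). The mitochondrial genes were MRPL20, MRPS15, MRPL55, MRPS25, MRPL36, MRPL22, MRPL18, MRPS33, MRPS2, MRPL41, MRPL23, MRPL46 and MRPS11. The translation factor genes were EEF1B2, EEF1D, EIF4E2, EIF2B5, EIF4G1, EIF4A2, EIF3A, EIF3B, EIF3F and EIF3H, which include the scaffold (EIF4G1) and a helicase (EIF4A2) of cap-dependent initiation. The synthetase genes were RARS1, CARS1 and WARS1. The assembly genes were MRTO4, UTP11, HEATR1, NCL, NPM1, NOP16, NHP2, UTP23, BOP1 and REXO4, of which NCL and NPM1 code for nucleolin and nucleophosmin, abundant proteins of the nucleolus. In G1, where 4.52% of all genes were called, the count over these 4 groups was 0, 0, 0 and 1, and the 1 was DDX18, a nucleolar helicase. MRPS33 was the 1 mitochondrial ribosomal protein gene called at 180m G1, where 4.65% of all protein-coding genes were called. It was also called in G2 (4.22% of all genes), in bulk HCT116 cells (10.4%) and with 50000 cells (5.51%).

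Ribosomal protein genes have left many processed pseudogenes, intronless copies made by reverse transcription of their mRNAs, and 1493 with a member's symbol followed by P and a number were annotated on the autosomes. These copies were called at 90m G1 in 207 cases (13.9%), against 12.5% of all 9727 processed pseudogenes. In G1 they were called in 141 cases (9.44%), against 14% of all processed pseudogenes, where none of the 84 members was called. In K562 cells 379 copies (25.4%) were inside lamina regions, against 30% of all processed pseudogenes, and 559 (37.4%) were inside the nonLAD list, against 30.7%. RPL21 had the most copies, 128, of which 19 were called at 90m G1, 8 in G1 and 36 in K562 cells, while RPL21 itself on chromosome 13 was called in no condition list. RPL23A had 85 copies, of which 21 were called at 90m G1 and 9 in G1. RPL7A had 78 copies, of which 7 were called at 90m G1, where RPL7A itself was called, and 5 in G1. Pseudogenes share sequence with their parents, and the part of reads with several matches in these calls was not tested.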

How the data were processed

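The authors aligned reads to hg19 with Bowtie2 (2.3.2 in the submitters' processing notes), removed duplicates, counted reads in windows, expressed pull-down over input per window as log2 and then as z-scores, and used a Hidden Markov Model for the calls, which were intersected over replicates. The 90m G1 and 180m G1 lists, unlike the other condition lists, are not named consensus lists. The deposited lists give the first and last position of each region (bp), with no signal or read count, so the depth behind a value is unknown. No column of other samples was present. Here 14 lists were read through GENCODE release 44 mapped to hg19. The percent of each gene, from annotated start to end, inside regions was computed for the autosomes, and at least 80% counted as called. Counts of members are given beside the share of all protein-coding genes, with no test, since there is 1 list per condition and genes of 1 window share its call. The members and gene lists were chosen with earlier results of these data known, and the comparisons of pseudogenes and small nucleolar RNA genes were added after the members' values had been seen.

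Genes were named by rule: every member with a base inside a condition list, the 5 nearest to a chromosome end outside 90m G1 regions, the 3 nearest to a G1 region, the 5 lowest in the nonLAD list (25 tied at 0%), 8 well-known members, and the genes of the other lists called at 90m G1. Some items that the rule names are not reported here. RPS24, RPL36, RPL28 and genes of other lists named outside 90m G1 were added after their values had been seen. Start-site letters came from the GRCh37 sequence, and RefSeq promoter entries on GRCh38 were matched by symbol. Overlap and distance functions were tested on simulated regions. Python 3.11.15, numpy 2.4.6, pandas 2.3.3 and matplotlib 3.10.9 were used. Alternatives were 50% or all of a gene, any base or the start site, regions of at least 200 kb, gaps of up to 100 kb joined, standard genes only, chromosome 19 left out, genes of all types and each chromosome left out in turn.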

Additional observations from a re-analysis of the deposited data

How the results depend on the processing

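With 50%, all or any base of the gene or its start site required, with regions of at least 200 kb, with gaps joined and without chromosome 19, the members called at 90m G1 numbered 14 in each case. None of these settings could change that count. Every member was 0% or 100% inside at 90m G1, the shortest region with a member was 1.5 Mb, and chromosome 19 had no region. The nearest member outside, RPL6, lay 0.143 Mb from a region, so joining gaps of up to 100 kb could add none. With standard genes only, the K562 count was 1 in place of 2, since RPL10L is a paralog. With genes of all types as background, 17.4% were called at 90m G1. Leaving out each chromosome in turn gave 12 to 14 members called at 90m G1, 0 to 1 at 180m G1 (0 without chromosome 3), 2 to 4 in bulk HCT116 cells (2 without chromosome 3) and 1 to 2 in K562 cells (1 without chromosome 6 or 14). No paired analysis was possible because the lists are merged over libraries, carry no replicate numbers and gave no test. Windows of 100 kb and merged lists limit every value, since a gene's percent reports the call of the windows it lies in.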
